A study of Mus musculus with 6 samples.

Results

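The 47 genes described here encode the Z-disc, thin filament and cytoskeletal proteins of striated muscle: troponins and tropomyosins, titin, the proteins that set thin filament length, Z-disc scaffolds, LIM proteins, desmin and its chaperone, and the ubiquitin ligases of the sarcomere. They were taken by symbol from a list of names drawn up with earlier results of these data known, and all 47 were found among the 43629 counted genes (Murc is named Cavin4 in the annotation). The RNA came from left ventricles of male F1 mice of the CD-1 strain that were 1 year old. For 3 of them the dam had been injected intraperitoneally once a day with normal saline, the vehicle, and for the other 3 with 20 mg/kg caffeine. The injections ran from E6.5 to E9.5, although another field of the sample labels ends them at E10.5. The labels do not say which litter each heart came from, so p-values measure the spread between these 6 hearts only. The comparison asks whether hearts of adults exposed to caffeine in utero held different amounts of these transcripts than vehicle controls.

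In a cardiac sarcomere, actin thin filaments are anchored at the Z-disc by alpha-actinin and slide past myosin when calcium binds the troponin complex and moves tropomyosin. Titin spans from the Z-disc to the M-band and gives the resting fibre its elasticity, while desmin filaments tie neighbouring Z-discs to each other and to the cell membrane. Many Z-disc proteins carry LIM, PDZ or ankyrin domains, are known as sensors of mechanical load, and cause cardiomyopathy or skeletal myopathy when mutated.

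No member passed the thresholds in caffeine-treated hearts. The test was edgeR's quasi-likelihood test with Benjamini-Hochberg adjustment over all 13092 tested genes, and a call needed an adjusted p below 0.05 and a fold change above 1.5. Among all tested genes 0.0840% were called higher and 0.0229% lower. Of the 47 members, 45 passed the filter on low counts, and Tnni1 and Ankrd2 did not. At an unadjusted p below 0.05 edgeR's quasi-likelihood test gave 9 higher and 4 lower members of 45, against 4.42% and 4.40% of all tested genes. With the adjusted p and fold change thresholds, edgeR's exact test called 1 member higher, Myot, and none lower, against 0.474% and 0.252% of all tested genes.

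Levels are given in CPM, the usual unit for the reads of a gene relative to the size of its library, scaled by edgeR's TMM factors. On that scale 11 of the 45 tested members (24.4%) had all 3 caffeine-treated hearts above all 3 vehicle controls, where 7.11% of all tested genes did so. In the other direction 4 members (8.89%) had every caffeine-treated heart below every control, close to the 7.12% of all tested genes. The members that lay above were Tnnc1, Myot, Flnc, Des, Cryab, Ankrd1, Pdlim1, Synpo2l, Lmod2, Capza2 and Fhl1, and those that lay below were Ttn, Nebl, Synpo2 and Palld. With 3 hearts a group the exact permutation test over the 20 labelings cannot go below p = 0.1, and it gave 0.1 for each of these 15.

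This split depended on the scaling. With library size alone and no composition factor, 3 members (Myot, Fhl1 and Cryab; 6.67%) lay wholly above and 10 (22.2%) wholly below, where all tested genes gave 3.06% and 14.0%. Myot, Fhl1 and Cryab stayed above under both scalings, and Ttn, Nebl, Synpo2 and Palld stayed below under both. Tnni3, Tnnt2, Tmod1, Myom1, Tcap and Trim54 lay wholly below under library size alone and overlapped under TMM. Overlap of hearts is given on the TMM scale where library size is not named. The genes Gm23935, Gm42418 and Lars2, which are no members, held 8.72% to 11.5% of all counts in vehicle controls and 14.7% to 18.4% in caffeine-treated hearts. Their part in the split was not tested.

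**Figure D1:**
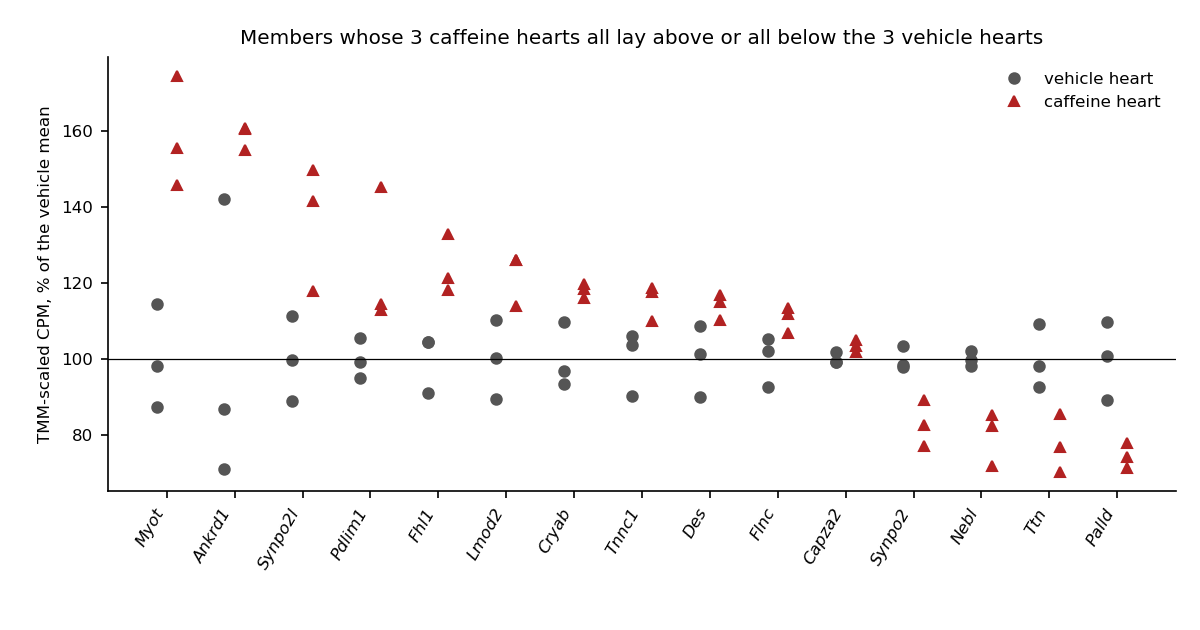
TMM-scaled CPM of each heart as a percent of the vehicle mean of its gene (vertical axis) for the 15 members whose groups did not overlap, with circles for the 3 vehicle hearts and triangles for the 3 caffeine hearts. The 3 triangles of Myot stand clear of its circles, the vehicle hearts of Ankrd1 are spread widely under tightly placed triangles, and Ttn, Nebl, Synpo2 and Palld have their triangles lowest.

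Over the 45 tested members the median log2 fold change was 0.03, against 0.00 over all tested genes, and the values ran from -0.42 for Palld to 0.67 for Myot and Ankrd1. Of the 45, 25 were above 0 and 20 below. Under library size alone the counts turned to 19 above and 26 below, with a median of -0.05, while the median of all tested genes moved to -0.084. For 37 of the 45 members the 95% interval of the fold change lay within 1.5-fold either way. The interval reached beyond 1.5-fold for the other 8, which were Ttn, Myot, Csrp1, Ankrd1, Pdlim2, Synpo2l, Lmod3 and Palld.

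**Figure D2:**
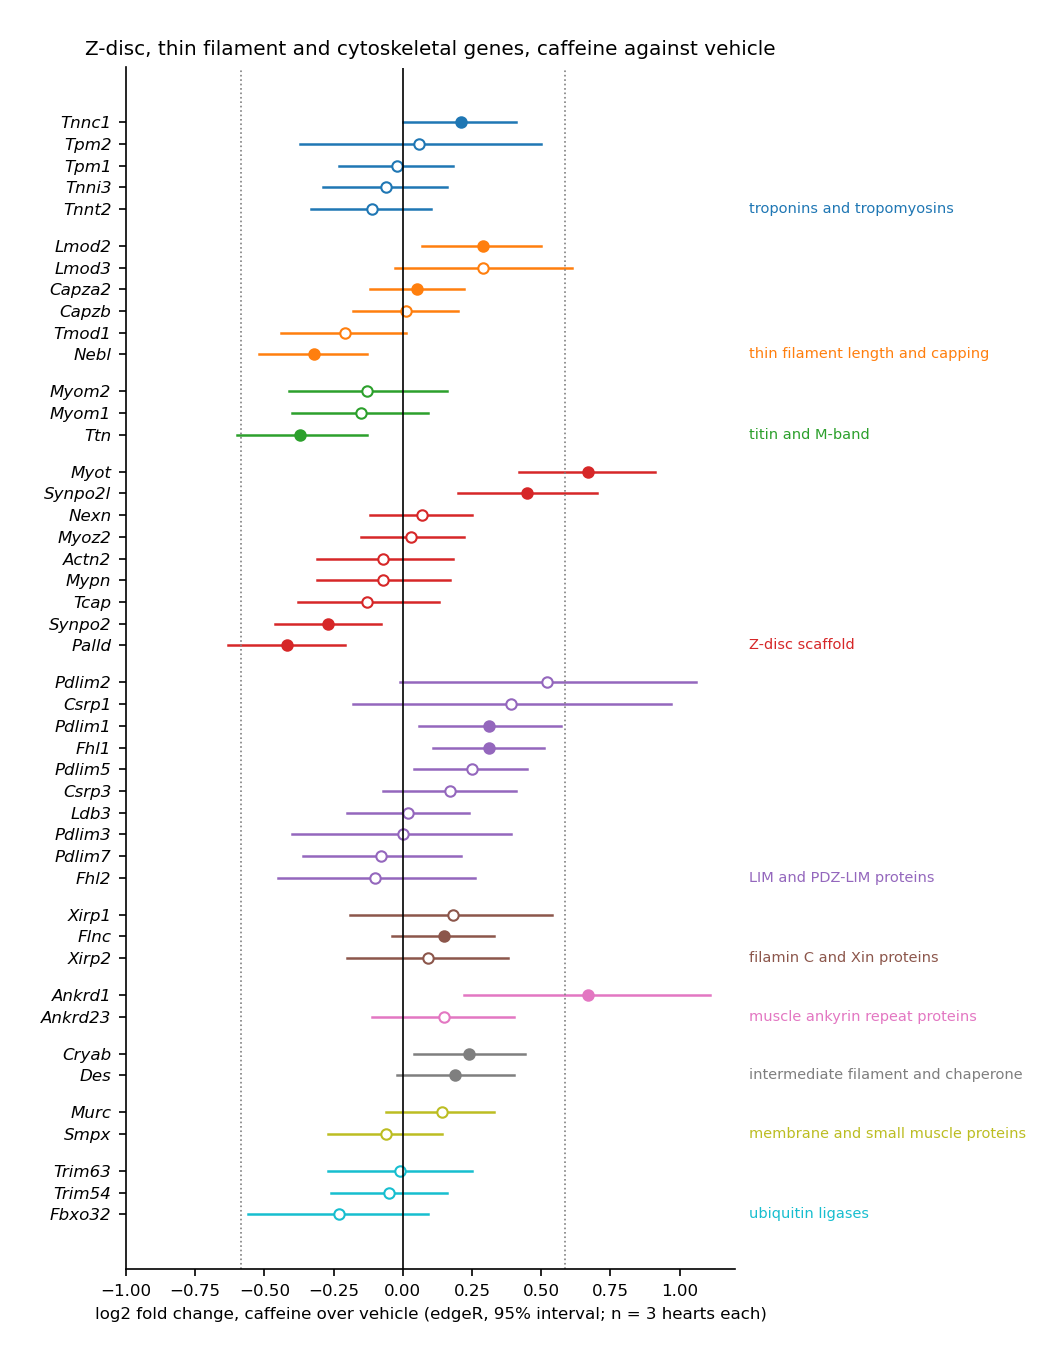
Log2 fold change of caffeine over vehicle (horizontal axis) with its 95% interval from edgeR for the 45 tested members, coloured by role; filled circles mark members whose hearts did not overlap and dotted lines mark 1.5-fold. Most intervals cross 0, Myot and Ankrd1 lie farthest right at 0.67, and Palld lies farthest left at -0.42.

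Sequence before the transcription start is shown for 5 members whose hearts did not overlap and that hold a motif known from muscle promoters. These 5 were picked after their values were seen. Des, Flnc, Nebl, Palld and Fhl1 also had their hearts apart and hold such a motif, and they are not shown. RefSeq starts on GRCm38.p6 were found for 38 of the 47 members, with 54 windows of 250 bases before a start. Capitals mark CATTCC (the MCAT element, bound by TEAD factors) in Ankrd1 and Tnnc1, which read GGAATG on the gene's strand, and the MEF2 site in Synpo2l, Ttn and Synpo2. The windows are chr19:36119845-36120094 on the minus strand for Ankrd1, chr14:31208062-31208311 on the plus strand for Tnnc1, chr14:20668355-20668604 on the minus strand for Synpo2l, chr2:76982548-76982797 on the minus strand for Ttn and chr3:123236150-123236399 on the minus strand for Synpo2.
Ankrd1: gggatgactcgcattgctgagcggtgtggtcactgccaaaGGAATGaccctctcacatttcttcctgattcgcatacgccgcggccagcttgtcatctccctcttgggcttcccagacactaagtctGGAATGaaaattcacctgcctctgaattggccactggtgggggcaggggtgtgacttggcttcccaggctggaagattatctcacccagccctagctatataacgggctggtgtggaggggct
Tnnc1: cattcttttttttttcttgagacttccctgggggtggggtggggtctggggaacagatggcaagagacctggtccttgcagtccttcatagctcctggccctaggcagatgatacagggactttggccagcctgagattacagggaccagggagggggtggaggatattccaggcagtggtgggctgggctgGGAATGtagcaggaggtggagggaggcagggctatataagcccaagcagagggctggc
Synpo2l: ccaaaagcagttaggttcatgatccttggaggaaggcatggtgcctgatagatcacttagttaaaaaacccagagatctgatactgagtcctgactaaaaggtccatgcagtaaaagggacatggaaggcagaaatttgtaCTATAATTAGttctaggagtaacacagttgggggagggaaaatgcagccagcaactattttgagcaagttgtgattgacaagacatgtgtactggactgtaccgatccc
Ttn: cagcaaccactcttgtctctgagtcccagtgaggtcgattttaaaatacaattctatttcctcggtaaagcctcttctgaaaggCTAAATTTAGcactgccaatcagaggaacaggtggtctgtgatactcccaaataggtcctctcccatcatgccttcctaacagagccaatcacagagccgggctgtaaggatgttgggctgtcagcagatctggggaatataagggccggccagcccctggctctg
Synpo2: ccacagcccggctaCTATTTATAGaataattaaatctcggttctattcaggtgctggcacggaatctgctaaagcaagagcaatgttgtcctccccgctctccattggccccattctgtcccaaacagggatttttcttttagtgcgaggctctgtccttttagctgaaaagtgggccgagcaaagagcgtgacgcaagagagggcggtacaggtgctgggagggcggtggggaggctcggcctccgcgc

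The motifs were searched on both strands. CATTCC was in 24.1% of the 54 member windows and in 12.6% of 32851 windows of the same length before all RefSeq starts. The E-box CAGCTG, a site of myogenic factors, was in 22.2% of member windows and 13% of all, the MEF2 site in 13% and 2.92%, and the CArG box, the site of serum response factor, in 13% and 1.47%. Some windows of the same gene overlap and so share motifs, and no test was run on these shares. A MEF2 site stood before members that were higher in caffeine-treated hearts (Synpo2l) and before members that were lower (Ttn, Synpo2), and CATTCC before Tnnc1 and Ankrd1 as well as before Nebl and Palld. Both also stood before members with overlapping hearts, the MEF2 site before Fhl2, Myoz2 and Xirp2, and CATTCC before Tnnt2, Tpm1 and others.

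On GRCm38 with the GENCODE annotation, all members are protein-coding genes, and positions are given for some with large differences. Myot (ENSMUSG00000024471) is at chr18:44334074-44355724 on the plus strand, Ankrd1 (ENSMUSG00000024803) at chr19:36111961-36120099 on the minus strand, Ttn (ENSMUSG00000051747) at chr2:76703980-76982547 on the minus strand and Palld (ENSMUSG00000058056) at chr8:61511433-61902690 on the minus strand. The GENCODE start of Ankrd1 lies upstream of the RefSeq start used for its window, so that window falls inside the position given here. Some members are neighbours. Csrp1, Tnni1 and Tnnt2 follow each other on chromosome 1 with gaps of 27201 and 25364 bp, and Myoz2 and Synpo2 lie 41503 bp apart on chromosome 3. Counts are of reads over all exons of a gene, so isoforms are not told apart.

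The troponins and tropomyosins form the calcium switch of the thin filament. Of the 5 tested members of this group, 2 were above 0 and 3 below (1 and 4 under library size alone), and none passed the test. Tnnc1, cardiac troponin C, the subunit that binds calcium, had 2761, 2350 and 2699 CPM in vehicle controls and 3062, 3093 and 2866 CPM in caffeine-treated hearts. The lowest caffeine-treated heart lay just above the highest control, and the log2 fold change was 0.21 with an SE of 0.093 (edgeR quasi-likelihood adjusted p = 0.561). Cardiac troponin I, Tnni3, the inhibitory subunit, had 4753, 4014 and 3875 CPM in controls and 4314, 3958 and 3813 CPM after caffeine. These hearts overlapped, and the log2 fold change of Tnni3 was -0.06 with a 95% interval from -0.29 to 0.16. Tnnt2, cardiac troponin T, which joins the complex to tropomyosin, differed by -0.11 on the log2 scale. Side by side, and with no test of the differences between them, troponin C lay higher with its hearts apart, and troponins I and T lay slightly lower with theirs mixed. Under library size alone, the hearts of Tnni3 and Tnnt2 lay wholly below the controls and those of Tnnc1 overlapped.

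Tpm1, alpha-tropomyosin, had 7547, 6510 and 7255 CPM in controls and 7230, 6981 and 6776 CPM in caffeine-treated hearts. Its log2 fold change of -0.02 (SE 0.094) was within the spread of the hearts. Tpm2, beta-tropomyosin, had 17.0, 14.5 and 16.2 CPM in controls and 22.7, 12.6 and 14.9 CPM after caffeine, so that the caffeine-treated hearts took both the highest and the lowest value. Tpm2 made up 0.223% ± 0.00143 (SD, n = 3) of the reads of both genes in controls and 0.238% ± 0.0678 in caffeine-treated hearts, with an exact permutation p of 1.0 on the log2 ratio. Without caffeine replicate 1 the difference turned from 0.0144 to -0.0232 percentage points.

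Tnni1, slow skeletal troponin I, is the isoform of the embryonic heart that Tnni3 replaces after birth. It had 0, 0 and 2 reads in vehicle controls and 0, 0 and 2 reads in caffeine-treated hearts, all under the 3 reads taken as the limit that a count of 0 allows. That limit was 0.286 to 0.394 CPM per library, so no return of this isoform above it was seen in either group. Tnni1 made up at most 0.00615% of the reads of Tnni1 and Tnni3 in any heart.

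The actin filament's pointed end is lengthened by leiomodins and capped by tropomodulin, and its barbed end is capped at the Z-disc by CapZ. Of the 6 members of this group 4 were above 0 and 2 below (2 and 4 under library size alone), and none passed the test. Lmod2, the main cardiac leiomodin, had 823, 669 and 748 CPM in controls and 850, 941 and 942 CPM after caffeine. Every caffeine-treated heart lay above the controls, by a log2 fold change of 0.29 with an SE of 0.097 (edgeR adjusted p = 0.376). Lmod3 differed by the same 0.29, with overlapping hearts and an interval from -0.03 to 0.61. Tmod1, the tropomodulin that caps against the leiomodins, differed by -0.21 (SE 0.10), also with overlapping hearts. The annotation gives 32.6% of its exon bases to Tstd2 on the opposite strand as well, and the strand setting of the counting is not stated, so the level of Tmod1 is uncertain. The CapZ subunits Capza2 and Capzb differed by 0.05 and 0.01, and Capza2, the member with the least spread, had its hearts apart although the fold change was 1.03. Under library size alone both signs turned, to -0.04 for Capza2 and -0.07 for Capzb.

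Nebl, nebulette, the short cardiac relative of nebulin that binds the thin filament where it enters the Z-disc, was the member of this group that differed most. It had 401, 386 and 392 CPM in controls and 283, 335 and 324 CPM in caffeine-treated hearts. The controls were tightly placed, all caffeine-treated hearts were under them, and the log2 fold change was -0.32 with an SE of 0.088 (edgeR adjusted p = 0.269).

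All 3 members of the titin and M-band group were below 0, and none passed the test. Ttn had 9094, 10123 and 8590 CPM in controls and 6528, 7934 and 7119 CPM after caffeine. The means were 9269 ± 781 and 7194 ± 706 CPM (SD, n = 3), with no overlap, a log2 fold change of -0.37, an SE of 0.11 and an edgeR adjusted p of 0.302. Ttn alone held 0.888% to 1.05% of all counts in controls and 0.612% to 0.768% in caffeine-treated hearts, and it was the only member among the 10 genes with the highest counts. Myom1 and Myom2, the myomesins that cross-link thick filaments at the M-band, differed by -0.15 and -0.13 with overlapping hearts.

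The Z-disc scaffold group held Palld, the member farthest below 0, and Myot, which shared the highest value with Ankrd1. Of its 9 members 4 were above 0 and 5 below (2 and 7 under library size alone). Myot, myotilin, which cross-links actin and binds alpha-actinin and filamin C, had 224, 171 and 192 CPM in controls and 304, 285 and 341 CPM in caffeine-treated hearts. The lowest caffeine-treated heart lay well above the highest control, and the means were 195 ± 26.5 and 310 ± 28.7 CPM (SD, n = 3). The fold change was 1.59 (log2 0.67, SE 0.11, 95% interval 0.42 to 0.91). The edgeR quasi-likelihood adjusted p was 0.0584, just short of the threshold, while edgeR's exact test gave an adjusted p of 1.29e-04. Over all alternatives the log2 fold change of Myot ran from 0.58 to 0.77. Its adjusted p ran from 1.63e-07 to 0.212, both from edgeR's quasi-likelihood test. The lower end came from the fit with no filter on low counts and the upper end from leaving out caffeine replicate 3. That unfiltered fit also gave Ankrd1 an edgeR adjusted p of 2.86e-08, against 0.317 in the main fit. Myot, Csrp1 and Pdlim2 are on the study's own list of changed genes, which was chosen on these samples, so their direction is not independent evidence.

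Synpo2l and Synpo2 are related actin-bundling proteins of the Z-disc, and they lay on opposite sides. Synpo2l, also known as CHAP, had 176, 197 and 220 CPM in controls and 233, 280 and 296 CPM after caffeine, with a log2 fold change of 0.45 (SE 0.11, edgeR adjusted p = 0.225). Synpo2, myopodin, had 270, 284 and 269 CPM in controls and 227, 245 and 212 CPM after caffeine, with a log2 fold change of -0.27 (SE 0.085, edgeR adjusted p = 0.348). Neither gene's hearts overlapped between the groups. Palld, palladin, an immunoglobulin-domain scaffold that binds alpha-actinin as myotilin does, had 181, 197 and 160 CPM in controls and 128, 133 and 140 CPM in caffeine-treated hearts. Every caffeine-treated heart was lower, by -0.42 on the log2 scale with an SE of 0.096 (edgeR adjusted p = 0.181). edgeR's exact test gave Palld an adjusted p of 0.0330, but its fold change of 0.746 stayed inside the 1.5-fold threshold.

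The remaining Z-disc scaffolds lay near 0 with overlapping hearts. Tcap, telethonin, which caps the titin ends in the Z-disc, had 1970, 1734 and 1668 CPM in controls and 1799, 1372 and 1746 CPM after caffeine, a log2 fold change of -0.13 (SE 0.12). Actn2, the cardiac alpha-actinin, differed by -0.07, Mypn, myopalladin, by -0.07, Myoz2, a calsarcin that binds calcineurin, by 0.03, and Nexn, nexilin, by 0.07. The 3 related immunoglobulin-domain proteins thus gave 0.67 for Myot, -0.42 for Palld and -0.07 for Mypn, side by side and without a test of their differences.

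The LIM and PDZ-LIM proteins bind alpha-actinin and carry signals from the Z-disc. Of the 10 members 7 were above 0 and 3 below, with a median log2 fold change of 0.21 (0.12 under library size alone, where 6 were above), and none passed the test. Fhl1, a protein made almost wholly of LIM domains that binds titin, had 303, 303 and 264 CPM in controls and 352, 343 and 385 CPM after caffeine. Its caffeine-treated hearts were all higher, by a log2 fold change of 0.31 with an SE of 0.090 (edgeR adjusted p = 0.297). Fhl2, its relative, differed by -0.10 with hearts mixed.

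Pdlim1, which is widely expressed and binds alpha-actinin, had 44.1, 46.9 and 42.2 CPM in controls and 50.8, 64.5 and 50.1 CPM in caffeine-treated hearts, with a log2 fold change of 0.31 (SE 0.11, edgeR adjusted p = 0.425). Pdlim5, the enigma homologue of heart muscle, had 1132, 1005 and 952 CPM in controls and 1256, 1127 and 1279 CPM after caffeine, a log2 fold change of 0.25 (SE 0.095, edgeR adjusted p = 0.469). Its second caffeine-treated heart lay just under the highest control, so the groups overlapped by this pair. Pdlim2 was the least abundant tested member per length. It had 7.13, 10.1 and 9.83 CPM in controls and 18.6, 9.82 and 10.9 CPM after caffeine, and its log2 fold change of 0.52 (SE 0.24, edgeR adjusted p = 0.579) ran from 0.20, without caffeine replicate 1, to 0.70 when single hearts were left out.

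Csrp1, a cysteine-rich protein best known from smooth muscle, had 27.4, 37.5 and 41.8 CPM in controls and 69.4, 42.6 and 29.0 CPM in caffeine-treated hearts. A single heart, caffeine replicate 1, was high, and the hearts of both groups were otherwise mixed. The log2 fold change of Csrp1 was 0.39 (SE 0.26, edgeR adjusted p = 0.725), and it ran from 0.01 to 0.65 when single hearts were left out; the value without caffeine replicate 1 was 0.01. Caffeine replicate 1 was also the highest heart for Pdlim2 and Tpm2. Csrp3, the muscle LIM protein and its cardiac relative, differed by 0.17 with an interval from -0.07 to 0.41. The other members of the group gave 0.02 for Ldb3, 0.00 for Pdlim3 and -0.08 for Pdlim7.

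Filamin C and the Xin proteins, which gather at Z-discs and at the intercalated discs between cells, were all above 0, with Xirp2 at 0.00 under library size alone, and none of the 3 passed the test. Flnc, which cross-links actin, had its caffeine-treated hearts above the controls by 0.15 on the log2 scale (SE 0.083). Xirp1 had 246, 321 and 234 CPM in controls and 307, 369 and 230 CPM after caffeine, a log2 fold change of 0.18 (SE 0.17) with the hearts mixed. Xirp2 differed by 0.09.

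The muscle ankyrin repeat proteins bind the elastic part of titin and also enter the nucleus, and Ankrd1 is known as a transcript that responds to load on the heart. Ankrd1 had 2109, 1729 and 3449 CPM in controls and 3761, 3895 and 3902 CPM in caffeine-treated hearts. The caffeine-treated hearts were close together, while vehicle replicate 3 lay far above the other controls and not far below the treated hearts. The means were 2429 ± 903 and 3853 ± 79.6 CPM (SD, n = 3), with a log2 fold change of 0.67, an SE of 0.20 and an edgeR adjusted p of 0.317. When single hearts were left out the log2 fold change ran from 0.47 to 1.0, and the upper value, without vehicle replicate 3, passed the thresholds (edgeR adjusted p = 0.00962). Ankrd23 differed by 0.15 (SE 0.12) with overlapping hearts. Ankrd2, mainly a skeletal muscle member, had 1, 0 and 2 reads in controls and 6, 1 and 7 reads after caffeine, too few to pass the filter.

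**Figure D3:**
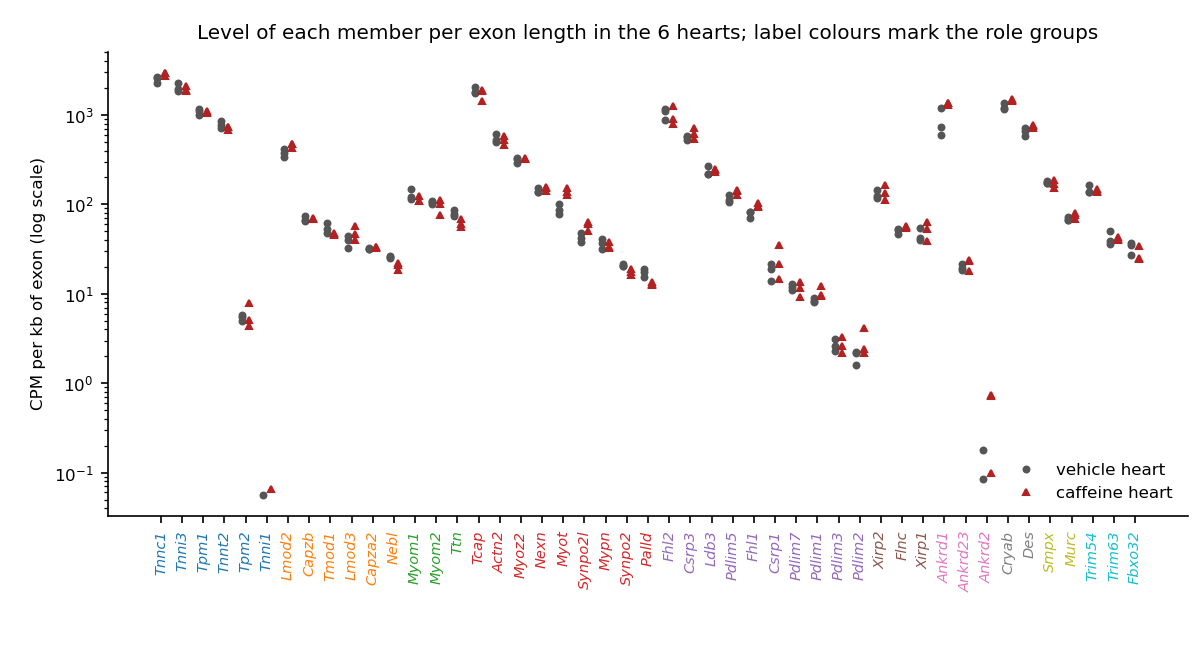
Level of each of the 47 members as TMM-scaled CPM per kilobase of annotated exon (vertical axis, log scale) in the 3 vehicle hearts (circles) and the 3 caffeine hearts (triangles), with label colours for the roles; hearts with 0 reads are not drawn. Tnnc1, Tnni3 and Tcap are at the top in both groups, and Tnni1 and Ankrd2 are at the bottom.

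Desmin and its chaperone both had their hearts apart. Cryab, alpha-B-crystallin, which protects desmin and titin from aggregation, had 2031, 1726 and 1791 CPM in controls and 2216, 2146 and 2192 CPM in caffeine-treated hearts, with a log2 fold change of 0.24 (SE 0.090, edgeR adjusted p = 0.439). The annotation places 17.0% of the exon bases of Cryab on Hspb2 as well, on the opposite strand, so the level of Cryab is uncertain to that extent. Des differed by 0.19 on the log2 scale (SE 0.094), with all caffeine-treated hearts above the controls under TMM scaling but not under library size alone.

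Murc, which binds caveolae at the muscle membrane, had 148, 136 and 137 CPM in controls and 166, 155 and 142 CPM after caffeine. Its log2 fold change was 0.14 (SE 0.089) with the hearts overlapping, and that of Smpx, a small protein of the costamere, was -0.06. The ubiquitin ligases Trim63 (MuRF1), Trim54 (MuRF3) and Fbxo32 (atrogin-1), which mark sarcomere proteins for breakdown in atrophy, were all below 0 and none passed the test. Fbxo32 had 260, 188 and 247 CPM in controls and 172, 177 and 241 CPM in caffeine-treated hearts, a log2 fold change of -0.23 (SE 0.15). Trim63 and Trim54 differed by -0.01 and -0.05, and the hearts of all 3 ligases overlapped.

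Levels of different genes are compared per kilobase of annotated exon. The highest vehicle means were 2501 CPM per kb for Tnnc1, 2043 for Tnni3, 1889 for Tcap, 1250 for Cryab and 1095 for Tpm1. The length of a gene's principal transcript, the longest where several are tagged, gave another order among the members that have one. Tnni3 came first there with 4620 CPM per kb and Tnnc1 next with 3611, so the order of these 2 depends on the length used. Several members, among them Tpm1 and Tnnt2, had no such length and could not be placed in that order. The lowest tested members were Pdlim2 at 2.01, Pdlim3 at 2.69 and Tpm2 at 5.46 CPM per kb. As a difference between hearts of a group, the median coefficient of variation of the members was 9.45% in controls and 7.75% in caffeine-treated hearts, and it was larger in controls for 22 of 45 and in caffeine-treated hearts for 23.

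The members that lay wholly below the controls have long transcripts. Annotated exon length was 116825 bp for Ttn, 15235 bp for Nebl, 13089 bp for Synpo2 and 10292 bp for Palld. Of the other members of 8000 bp or more, Flnc lay wholly above. Across all tested genes with a length, the Spearman correlation of exon length with log2 fold change was -0.18 (n = 13045), and across the 45 members it was -0.40. These are correlations across genes of the same 6 libraries and genes are no independent replicates. The median log2 fold change of all tested genes went from 0.07 between 1000 and 2000 bp to -0.06 between 8000 and 16000 bp and -0.07 from 16000 bp up. Members between 8000 and 16000 bp had a median of -0.14 (n = 8). In that length range 10.8% of all tested genes lay wholly below the controls and 4.68% wholly above, and from 16000 bp up 12.4% and 2.19% did.

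With an offset for exon length in the fit, an alternative added after the data were seen, the log2 fold changes were -0.26 for Ttn, -0.26 for Nebl, -0.21 for Synpo2 and -0.37 for Palld. Each was nearer 0 than without the offset. The offset takes out the length trend of all tested genes, which was below 0 at these lengths, so this shift follows from how it is built. Myot was 0.62, Ankrd1 0.64 and Synpo2l 0.45 in that fit, and no member was called. The part of exon length in the lower values was not tested further.

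**Figure D4:**
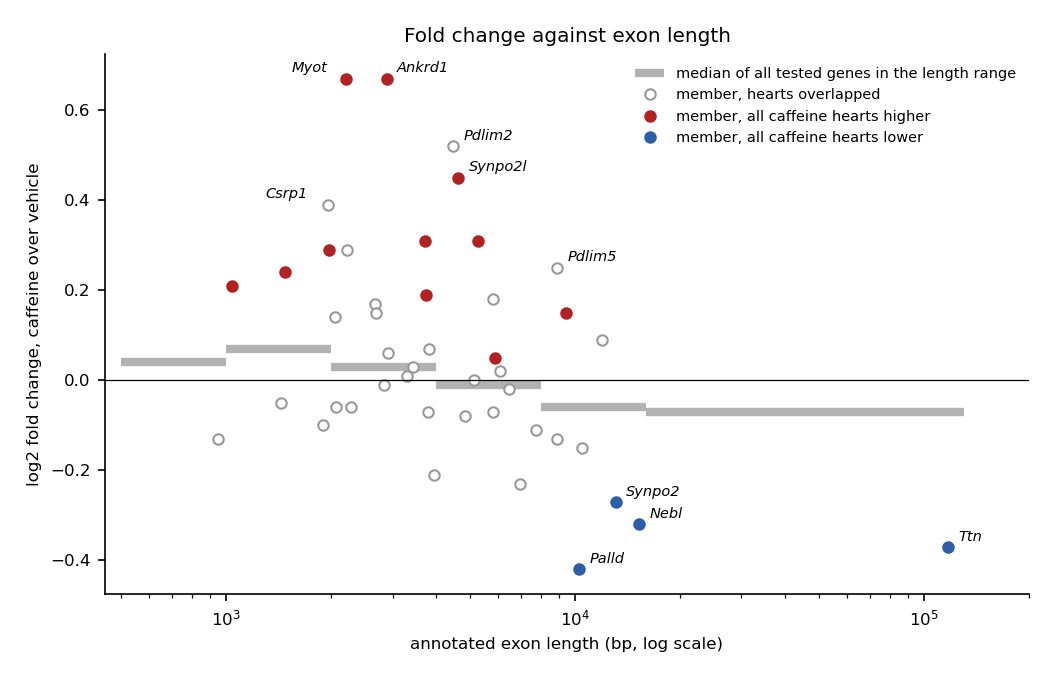
Log2 fold change of caffeine over vehicle (vertical axis) against annotated exon length in bp (horizontal axis, log scale) for the 45 tested members; grey bars give the median of all tested genes in each length range. Red circles mark members with all caffeine hearts higher and blue circles those with all caffeine hearts lower, and the 4 blue circles all lie at 10292 bp or longer.

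The members' values also differed between hearts of a group. Vehicle replicate 1 held the highest control value for 30 of the 45 members, vehicle replicate 2 for 7 and vehicle replicate 3 for 8. The median log2 deviation of the members from the vehicle mean was 0.088, -0.045 and -0.033 in the controls and 0.040, 0.074 and -0.027 in the caffeine-treated hearts, so the groups overlapped. Without vehicle replicate 1 the median log2 fold change of the members was 0.11, and without vehicle replicate 2 it was -0.01. The members held 5.80% ± 0.176 (SD, n = 3) of all counts in controls and 5.47% ± 0.169 in caffeine-treated hearts, with an exact permutation p of 0.1. Without the 10 genes with the highest counts the sign turned, to 5.97% and 6.29%. Those 10 include Ttn, so Ttn was left out of the members as well as of the total. With only Gm23935, Gm42418 and Lars2 left out, Ttn stayed among the members and the shares were 6.46% and 6.55%.

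The genes of the same pathway that are not members, such as nebulin relatives, vinculin, talins, other actinins and small heat shock proteins, were listed with earlier results known and counted only. Of 55 genes 48 were tested, and none passed the thresholds of edgeR's quasi-likelihood test. At an unadjusted p below 0.05 in that test 6 were higher and 2 lower, against 4.42% and 4.40% of all tested genes. The hearts lay wholly above for 5 (Vim, Bag3, Hspb1, Hspb8 and Klhl40) and wholly below for 4, among them Pdlim4, Tln2 and Klhl41. These are 10.4% and 8.33% of those tested, not far from the 7.11% and 7.12% of all tested genes. Their median log2 fold change was 0.02. The small heat shock proteins, the family of Cryab (log2 fold change 0.24), gave 0.36 for Hspb1 and 0.21 for Hspb8 with hearts apart, and 0.02 for Hspb2, 0.28 for Hspb6 and 0.04 for Hspb7 with overlapping hearts, and none of them passed the test.

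The whole series holds 6 libraries with 7613011 to 10483101 counts, and the caffeine-treated libraries were the 3 smallest. Markers of ventricular cardiomyocytes summed to 59491 to 69824 CPM in controls and 59827 to 63276 CPM in caffeine-treated hearts, while markers of atrial cells summed to at most 2.35 CPM. Of the skeletal muscle list only Ckm, which the heart also expresses, passed the filter, and Myh1 and Myh4 had no reads. The 5 fibroblast markers summed to 676 to 779 CPM in controls and 823 to 967 CPM in caffeine-treated hearts, the 5 smooth muscle markers, from cells that also express Csrp1, Synpo2 and Palld, to 200 to 245 and 174 to 205 CPM, and the 4 macrophage markers to 70.1 to 109 and 88.5 to 165 CPM. With edgeR's quasi-likelihood test no marker of any list was called. edgeR's exact test called 1, the macrophage marker Adgre1, higher (adjusted p = 0.0415, fold change 1.91, all caffeine-treated hearts above). The part of these cells in the members' values was not tested. In bulk ventricle, fewer cells of a type and less RNA per cell cannot be told apart.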

How the data were processed

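Poly(A) RNA of 3 vehicle and 3 caffeine left ventricles was sequenced as single-end reads. Per the labels and the methods, the authors checked reads with FastQC, mapped them to mm10 (GRCm38) with TopHat2 and took gene counts from HTSeq with the genes of Ensembl release 79; versions of these tools are not given in the sources used here, nor is the strand setting. The deposited values are raw counts for 43629 genes per library, with no normalization and no pooling, and they total 7613011 to 10483101. A count of 0 allows up to 3 counts, or 0.286 to 0.394 CPM, which covers counting error only.

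Genes were filtered with filterByExpr of edgeR 4.0.16 (R 4.3.3; minimum count 10, total 15), scaled by TMM and fitted with the quasi-likelihood test on treatment alone, with thresholds as the study set them. All 13092 tested genes entered the fit and the Benjamini-Hochberg adjustment; the dispersion common to them was 0.0145 (biological coefficient of variation 12.1%). The SE of a log2 fold change is its size over the square root of F. Single values had an exact two-sided permutation test over the 20 labelings. Alternatives used DESeq2 1.42.0, limma 3.58.1, edgeR's exact test, other scalings, filters and depths, a replicate block and each heart left out; a loess offset on exon length and the count of non-overlapping hearts under library size alone were added after seeing the data. The fits were tested on simulated data. Tables and permutations were made in Python 3.11.15 with SciPy 1.17.1, NumPy 2.4.6 and pandas 2.3.3, and plots with Matplotlib 3.10.9.

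Positions and exon lengths (union of all exons) came from GENCODE release 21 (mouse series M), promoters from RefSeq on GRCm38.p6, of which the 250 bases before each start were used. The members, role groups and lists were chosen with earlier results of these data known. Given in every heart are members past the thresholds in the quasi-likelihood or exact test, those at an unadjusted p below 0.05, the 5 highest per kilobase, the largest change of each role group, those the study names (Tnni3, Tnnc1, Myot, Csrp1, Pdlim2) and the isoform pairs. No pairing of the hearts by replicate number is stated. Same-number correlations of deviations were 0.045, -0.03 and -0.0375, which with 3 hearts a group cannot exclude a pairing. Values of some single genes outside the member list are not reported here.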

Additional observations from a re-analysis of the deposited data

How the results depend on the processing

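The count of members called higher was 0 with edgeR's quasi-likelihood test, limma-voom, other size factors, a stricter filter, thinning to the smallest total, the length offset and no fold threshold. It was 1 with edgeR's exact test and 1 with DESeq2 (Myot in both), 2 with no filter on low counts (Myot and Ankrd1), and 0 to 1 when single hearts were left out (Myot without vehicle replicate 1, Ankrd1 without vehicle replicate 3). Of all 13092 tested genes the main fit called 11 higher, the exact test 62 and DESeq2 39. With no filter 145 of 22407 genes were called higher, without vehicle replicate 1 it was 17 of 13296, and without vehicle replicate 3 it was 15 of 13285. No setting called a member lower. With the replicate number as a block 1 member was called (Myot, edgeR adjusted p = 0.0266), where 29 of all tested genes were called higher and 11 lower. No pairing of the hearts by these numbers is stated. The median log2 fold change of the members ran from -0.01 to 0.11 without single hearts and was -0.05 with library size only. With library size only, 3 members lay wholly above the controls in place of 11 and 10 wholly below in place of 4. Of the alternative values of members given in every heart, 361 kept their direction and their side of the threshold, 7 passed it (all of Myot or Ankrd1) and 6 turned sign: Tnni3 to 0.03 and Tpm1 to 0.02 without vehicle replicate 1, Tpm1 to 0.00 without caffeine replicate 3 and with the length offset, and Tpm2 to -0.02 with library size only and -0.21 without caffeine replicate 1. The difference in the members' share of counts turned from -0.333 to 0.323 percentage points without the 10 genes with the highest counts, which also took Ttn out of the members. The share of Tpm2 in both tropomyosins differed by -0.0232 to 0.0428 percentage points without single hearts, and that of Tnni1, resting on 4 reads in all, by -0.00174 to 0.00205. Without single hearts Tnni3 ran from -0.12 to 0.03, Tpm1 from -0.08 to 0.02 and Tpm2 from -0.21 to 0.23. The causes of these changes were not tested. Depth limits Tnni1 and Ankrd2, and the lowest tested member had 590 reads over the 6 hearts.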
